A study of Mus musculus with 4 samples.

Results

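The genes described here encode the respiratory chain and the ATP synthase of mouse mitochondria. They were chosen by symbol: all genes of the deposited table beginning with Nduf, Uqcr, Cox4i, Cox5, Cox6, Cox7, Cox8 or Atp5, the genes Sdha, Sdhb, Sdhc, Sdhd and Cyc1, and the genes beginning with mt-Nd, mt-Co, mt-Cyt or mt-Atp. There were 100 such genes among the 12208 of the table, 87 in the nuclear genome and 13 in the mitochondrial genome. Ndufb1-ps also matched the symbols and was left out as a pseudogene by name. With a mean of at least 1 CPM (counts per 1000000 reads over the listed genes), 99 genes were tested. The exception was mt-Atp8. The cells were 3T3, labelled as a mouse pre-osteoblast line, cultured for 24 h or 48 h either as control or with recombinant LTα1β2, the membrane-type lymphotoxin heterotrimer of the TNF family. Each of the 4 groups was 1 RNA-seq library, and nothing in the labels says whether the libraries came from separate cultures. No other allele or agent is named in the labels.

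Oxidative phosphorylation is carried out by 5 complexes of the inner mitochondrial membrane. Complex I takes electrons from NADH and complex II from succinate, both pass them through ubiquinone to complex III, and cytochrome c carries them on to complex IV, which reduces oxygen. Complexes I, III and IV pump protons, and complex V, the ATP synthase, uses the gradient to make ATP. Complexes I, III, IV and V are built from proteins of both genomes, and complex II from nuclear genes alone. The mitochondrial mRNAs are cut from long transcripts made inside the organelle, whereas the nuclear mRNAs are made in the nucleus and their proteins are imported.

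Depth ranged from 11355974 to 15995777 reads per library, recovered from the CPM steps. The treated 48 h library was the shallowest and had the lowest median transcript length weighted by reads, 3127 bases against 3588 to 3659 bases in the other 3. It is the only treated library at 48 h, so its properties and the treatment at that time cannot be told apart. CPM are shares of a library, so more of one transcript and less of the rest cannot be told apart either. Of 9 osteoblast precursor markers 7 were tested, with Col1a1 at 15680, 14200, 10030 and 7356 CPM in the controls (24 h, then 48 h) and the treated libraries (24 h, then 48 h). In the additive fit described further on, 4 of the 7 fell with treatment (Sp7, Col1a1, Runx2 and Dlx5) and none rose. Spp1, which did not pass (adjusted p = 0.337), was at 1234 and 1525 CPM without LTα1β2 and 1430 and 2210 CPM with it. The late marker Bglap stood at 1.13 to 1.34 CPM, and Alpl and Ibsp were not analysed here. Markers of endothelial and epithelial cells were not among the tested genes, and the 3 tested macrophage markers of 7 summed to 57.4 to 85.9 CPM, mostly Lyz2. Of 8 fibroblast markers 5 were tested, with Vim at 3176 to 3784 CPM. Of these S100a4 rose, from 3.88 and 4.28 CPM without LTα1β2 to 5.34 and 10.4 CPM with it (adjusted p = 0.0124), and Pdgfrb fell, from 305 and 298 CPM to 228 and 177 CPM (adjusted p = 0.0197). Of 5 adipocyte markers 1 was tested, Fabp4, which rose from 1.94 and 1.45 CPM to 2.40 and 6.69 CPM (adjusted p = 0.00267), and of 4 muscle markers 1 (Des, 3.74 to 7.25 CPM). S100a4, Fabp4 and Spp1 were highest in the treated 48 h library. The part of these marker differences in the results for the respiratory chain was not tested.

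At 48 h all 87 nuclear genes of the chain stood higher in the treated library than in its control, whereas at 24 h the nuclear genes differed little. The median nuclear difference was 0.44 on the log2(CPM + 1) scale at 48 h and 0.04 at 24 h, beside -0.09 and 0.02 over all 12160 tested genes, of which 4948 were higher at 48 h. The genes of small subunits differed most, in particular those of complex IV, such as Cox6c, Cox7a2, Cox7b and Cox7c, and of the membrane part of complex V, such as Atp5j2 and Atp5mpl. The mitochondrially encoded genes did not move together: at 48 h mt-Nd2, mt-Nd4 and mt-Nd5 were lower in treated cells and mt-Co1 and mt-Cytb lay within 8% of control. The ratio of mitochondrial to nuclear CPM of the chain was 3.33 and 3.43 in the control libraries at 24 h and 48 h, 3.45 in treated cells at 24 h and 2.47 in treated cells at 48 h. Several mitochondrial genes share nearly all their sequence with nuclear copies, as given below, so the size of this ratio is uncertain. The treated 48 h library stood apart from the other 3 in all these respects.

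The mitochondrially encoded genes fell into a high and a low class, and the low class shared nearly all its letters with nuclear copies. The first 60 bases of mt-Atp6, mt-Co2 and mt-Co3 are printed with those of 3 nuclear pseudogenes that the GENCODE M21 annotation (GRCm38) places on chromosome 1, minus strand. Capitals would mark mismatches, and there are none.
mt-Atp6: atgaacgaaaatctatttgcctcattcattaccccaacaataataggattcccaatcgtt
Gm10925: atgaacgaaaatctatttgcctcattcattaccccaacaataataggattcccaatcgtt
mt-Co2: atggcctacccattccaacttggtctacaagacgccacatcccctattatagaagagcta
Gm28661: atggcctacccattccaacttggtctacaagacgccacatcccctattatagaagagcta
mt-Co3: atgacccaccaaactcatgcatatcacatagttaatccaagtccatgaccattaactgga
Gm28437: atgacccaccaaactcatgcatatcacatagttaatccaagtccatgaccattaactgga
Gm10925 (chr1:24613974-24614651) matched mt-Atp6 over 678 bases, Gm28661 (chr1:24614885-24615565) matched mt-Co2 over 681 bases and Gm28437 (chr1:24613189-24613971) matched mt-Co3 over 783 bases, each with 0 mismatches. A read from such a stretch has no single place in the genome, and how the authors' counting treated it is not given in the sources used here.

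Of all 100-base windows of the transcript, 97.6% to 99.9% also occurred in another annotated transcript for mt-Co2, mt-Co3, mt-Atp6, mt-Nd3 and mt-Nd4l. These 5 genes were listed at 42.4 CPM or less. The share was 60.8% for mt-Nd4, 30.8% for mt-Co1, 3.19% for mt-Nd2 and 0 for mt-Nd1, mt-Nd5, mt-Nd6 and mt-Cytb, and these 7 genes were listed at 759 to 12180 CPM. The pseudogenes carried CPM of their own: Gm28661 had 27.4, 25.0, 25.6 and 44.1 CPM in the controls (24 h, then 48 h) and the treated libraries (24 h, then 48 h), beside 31.8, 33.3, 35.0 and 42.4 CPM of mt-Co2. The gap between the high and low classes thus followed the sharing of windows, with mt-Atp8 unsettled. This transcript of 204 bases was listed at 0.934 to 1.07 CPM and had no window in another annotated transcript. Its map place is between mt-Co2 and mt-Atp6, whose copies Gm28661 and Gm10925 lie close together on chromosome 1. The unannotated stretch between these copies was not searched, so a nuclear copy of mt-Atp8 was not tested. Levels of the low class are therefore uncertain as measures of mitochondrial mRNA.

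**Figure D1:**
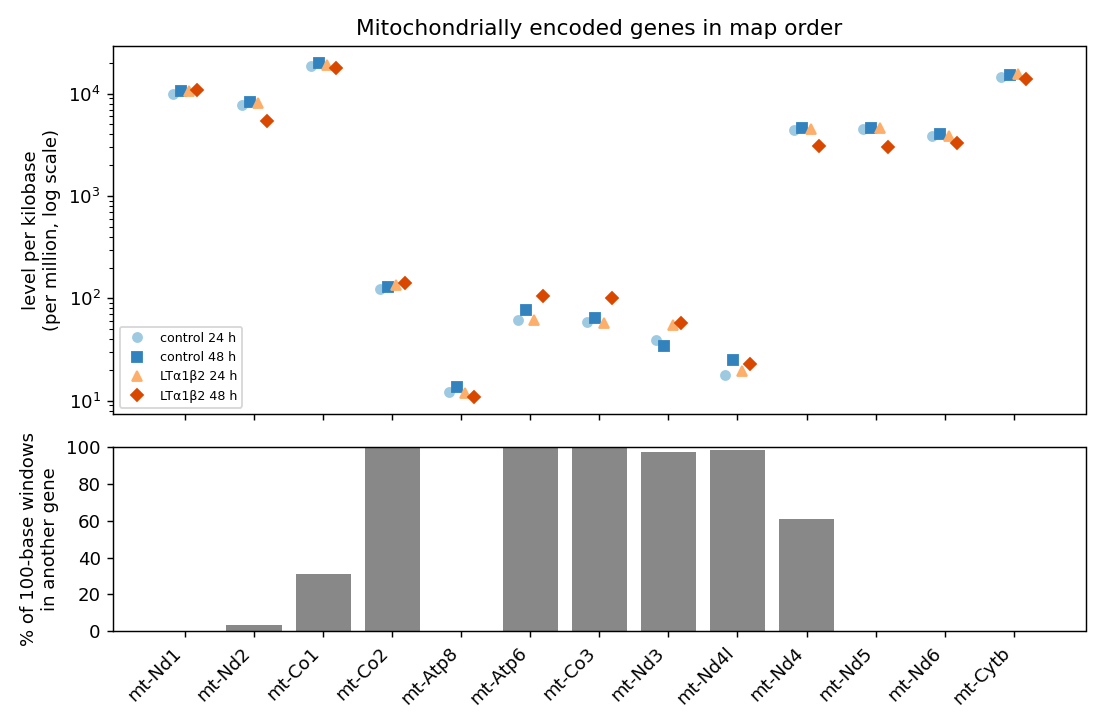
Mitochondrially encoded genes in map order. The upper panel gives the level per kilobase of transcript (log scale) in each of the 4 libraries, and the lower panel the percentage of 100-base windows found in another annotated transcript; the genes with 97.6% or more shared windows and mt-Atp8 sit far below the others, and only the treated 48 h points of mt-Nd2, mt-Nd4 and mt-Nd5 lie well under the other 3 libraries.

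Among the 7 high mitochondrial genes the order of levels per kilobase of whole transcript was mt-Co1, mt-Cytb, mt-Nd1 and mt-Nd2 in every library. Scaled to 1000000 over the table, mt-Co1, the catalytic subunit of complex IV, stood at 18520, 20080, 18980 and 17860 in the controls (24 h, then 48 h) and the treated libraries (24 h, then 48 h). The cytochrome b gene mt-Cytb, the only mitochondrial gene of complex III, stood at 14570, 15050, 15480 and 13960 on the same scale. That scale is set within each library and serves to compare genes, not libraries. By CPM both genes were highest in the treated 48 h library, at 12180 for mt-Co1 and 7049 for mt-Cytb. Per kilobase the order of mt-Nd4 and mt-Nd5 was not resolved, since their levels differed by under 4% in each library. In the treated 48 h library mt-Nd6, the gene of the light strand, at 3318, passed both of them. However, 60.75% of the windows of mt-Nd4 are shared. Per unshared window mt-Nd4 had 72.51, 62.85, 70.44 and 42.25 reads, with the libraries in the order above. For mt-Nd5 the values were 28.53, 24.53, 28.18 and 15.83, and mt-Nd6 had 20.55 in the treated 48 h library. By that count mt-Nd4 also lay above mt-Nd2 in every library, so its place depends on how shared windows are treated.

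The mitochondrial genes of complex I subunits split at 48 h. The CPM of mt-Nd2 was 3049 and 3309 in the controls at 24 h and 48 h, 3233 in treated cells at 24 h and 2459 in treated cells at 48 h, a ratio to control of 1.06 (95% counting interval 1.05 to 1.07) at 24 h and 0.743 (0.732 to 0.755) at 48 h. The CPM of mt-Nd5 was 3077 and 3230 without LTα1β2 and 3244 and 2405 with it, a ratio of 1.05 at 24 h and 0.745 (0.733 to 0.756) at 48 h. The CPM of mt-Nd4 was 2276 and 2409 without LTα1β2 and 2359 and 1868 with it, a ratio of 1.04 at 24 h and 0.776 (0.762 to 0.789) at 48 h. For all 3 genes the treated 48 h value was the lowest of the 4 libraries and the other 3 lay close together. The first subunit gene of the map, mt-Nd1, had the opposite order, at 3539 and 3898 CPM without LTα1β2 and 3903 and 4573 CPM with it (ratio 1.17 at 48 h, 1.16 to 1.19). The ratio at 48 h was 1.03 for mt-Co1 (1.02 to 1.04), 1.08 for mt-Cytb (1.07 to 1.09) and 0.956 for mt-Nd6 (0.929 to 0.984), which overlaps mt-Nd5 on the other strand. Intervals cover counting error only, and with 1 library per group these differences have no replicate check.

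Of the low class, mt-Co3 was at 17.4, 19.2, 17.4 and 34.9 CPM in the controls (24 h, then 48 h) and the treated libraries (24 h, then 48 h). Its identical copy Gm28437 was at 14.1, 16.3, 15.4 and 30.7 CPM, and mt-Atp6 at 15.8, 19.9, 16.1 and 31.9 CPM beside 26.8, 29.8, 30.6 and 43.9 CPM of its copy Gm10925. In each pair both partners were highest in the treated 48 h library. The ratio at 48 h was 1.82 for mt-Co3, 1.61 for mt-Atp6, 1.27 for mt-Co2 and 1.06 for mt-Nd4l. For mt-Nd3 the values were 5.13, 4.58, 7.34 and 8.81 CPM.

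Together the 13 genes held 2.98% and 3.21% of CPM in the controls at 24 h and 48 h and 3.16% and 3.14% in treated cells. The nuclear genes held 0.894%, 0.937%, 0.915% and 1.27% in the same order. Per kilobase of the longest annotated transcript, the mitochondrial sum was 3.48, 3.58, 3.61 and 2.47 times the nuclear sum, and 2.41, 2.48, 2.51 and 1.65 times by the median length of a gene's coding transcripts. On each of these 3 scales the ratio was lowest in the treated 48 h library and similar in the other 3. Within the mitochondrial CPM, mt-Co1, mt-Cytb and mt-Nd1 made up 69.0%, 69.4%, 69.4% and 75.8%. The 5 genes with nearly all windows shared held only 0.00721% to 0.0121% of CPM, a level that is uncertain. Only 3 windows of mt-Co2 and 1 of mt-Co3 were unshared. The annotated copies matched 681 of the 684 bases of mt-Co2 and 783 of the 784 bases of mt-Co3. Reads per unshared window therefore give no level for these 2 genes. The mitochondrial shares, ratios and percentages given here are thus uncertain as measures of mitochondrial mRNA.

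Levels between nuclear complexes were compared per kilobase, as the median over the genes of each complex. Complex IV was highest, at 308 to 487 over the 4 libraries (each table scaled to 1000000), followed by complex V at 221 to 283, complex III at 161 to 203, complex II at 123 to 136 and complex I at 108 to 149, against 20.9 to 26.6 for all tested genes. The 8 assembly factors of complex I, which help build it but are not subunits, stood at 24.7 to 29.5. The order of complexes IV, V and III held in each library, whereas the ranges of complexes I and II overlapped. By median transcript length, complexes IV and V were alike at 278 and 277 (mean of the 4 library medians), so their order rests on the choice of length. The highest nuclear gene was Atp5b, the catalytic beta subunit of complex V, at 3151, 3246, 3167 and 3075 in the controls (24 h, then 48 h) and the treated libraries (24 h, then 48 h). Its CPM, unlike its level per kilobase, was highest in the treated 48 h library, at 2601. Next per kilobase came Cox8a, a small complex IV subunit, at 940 to 986, and Cox4i1, its ubiquitous subunit 4 isoform, at 759 to 1011. Ndufb2, a complex I accessory gene, was lowest at 2.52 to 3.96, with 4.20 to 6.50 CPM and a longest annotated transcript of 4371 bases for 315 coding bases.

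**Figure D2:**
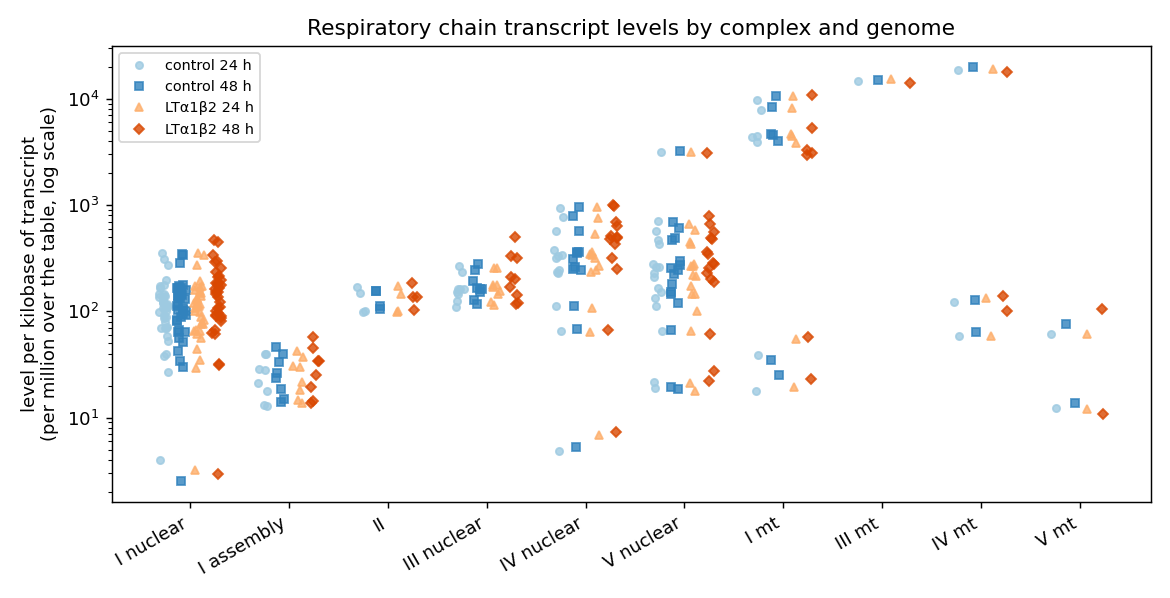
Level per kilobase of transcript (scaled to 1000000 over the table, log scale) of every gene in each of the 4 libraries, by complex and genome (mt, mitochondrial). Complex I assembly factors lie under most subunits, Atp5b at 3075 to 3246 stands above the other nuclear genes, and the mitochondrial genes form a high and a low class.

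Isoform genes of the same subunit differed in level. The 3 genes of the identical mature c-ring subunit of complex V stood, per kilobase on the same scale, at 60.9 to 66.9 for Atp5g1, 446 to 495 for Atp5g2 and 668 to 788 for Atp5g3. Their order was the same in each library. At 48 h the treated to control ratio was 1.06 for Atp5g1 (0.983 to 1.14), 1.12 for Atp5g2 (1.05 to 1.20) and 1.31 for Atp5g3 (1.25 to 1.38). Cox6a1, the widely expressed isoform of subunit 6a, had 128 to 174 CPM, and Cox6a2, the heart and skeletal muscle isoform, 1.25 to 2.20 CPM. Cox4i2, Cox6b2, Cox7a1, Cox8b and Cox8c, the other isoforms of these families, had no entry by these symbols in the deposited table.

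Which genes differed by treatment over both times was tested with an additive limma fit of time and treatment over all 4 libraries, in which 24 h and 48 h serve as repeats of the treatment. With Benjamini-Hochberg adjustment over all genes, 12 of the 99 genes rose (12.1%) and 0 fell, beside 2.92% higher and 2.27% lower of all 12160 tested genes. At an unadjusted p under 0.05 there were 36 genes of the chain (36 of 99), beside 16.3% of all tested genes. Those that rose were 5 nuclear subunits of complex IV (Cox6c, Cox7a2, Cox7b, Cox7c and Ndufa4), 3 accessory subunits of complex I (Ndufa2, Ndufa6 and Ndufc2), Uqcrb of complex III, Atp5j2 and Atp5mpl of complex V, and mt-Nd3. Their log2 folds over both times lay between 0.55 and 0.67, formed from 0.81 to 1.35 at 48 h and -0.02 to 0.45 at 24 h. None of the 4 complex II genes, the 8 assembly factors or the 7 nuclear core subunits of complex I passed, and at an unadjusted p under 0.05 there were 0, 0 and 2. Because the prior spread was estimated with infinite degrees of freedom, each gene was judged by the spread typical of its level, so a gene whose 2 treatment folds lie far apart could pass. With finite prior degrees of freedom of 9.82 no gene of the chain passed, with 17 at an unadjusted p under 0.05, beside 11.8% of all tested genes. Fits to 3 libraries cannot hold a time term, so they differ from the additive fit in 2 respects, and dropping the time term alone, with all 4 libraries, gave 0 genes. The group left with 1 library is assumed in them to vary like the other. Without the treated 24 h library, where the spread came from the 2 controls, 69 rose and 3 fell, beside 15.5% higher and 25.2% lower of all tested genes. Those that fell were mt-Nd2 (-0.37, adjusted p = 0.0181), mt-Nd4 (-0.33, adjusted p = 0.0228) and mt-Nd5 (-0.39, adjusted p = 0.0114). Without the treated 48 h library, again with the spread of the 2 controls, none rose and 1 fell, beside 3.31% higher and 3.04% lower of all tested genes. It was Ndufv3, an accessory gene of complex I (-0.34, adjusted p = 0.0293), and 4 genes were at an unadjusted p under 0.05, beside 15.9% of all tested genes. Without either control library 0 passed, with 1 gene at an unadjusted p under 0.05 without the 24 h control (beside 3.21%) and 9 without the 48 h control (beside 3.26%).

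**Figure D3:**
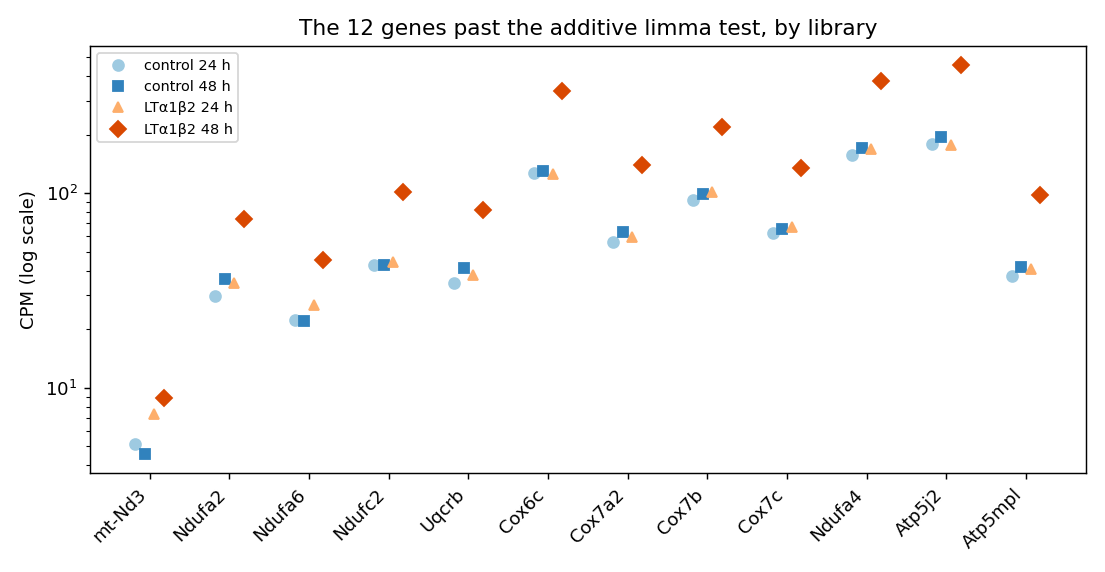
CPM (log scale) of the 12 genes past the additive limma test in each of the 4 libraries. For the 11 nuclear genes the treated 48 h point lies well above the other 3, which lie close together; for mt-Nd3, the lowest at 4.58 to 8.81 CPM, both treated points lie above both controls.

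Complex IV held the largest differences. Cox6c, a small subunit of the membrane part (ENSMUSG00000014313.15, chr15:35925886-35938246 in GENCODE M21, minus strand), was at 127 and 131 CPM in the 24 h and 48 h controls and at 125 and 337 CPM with LTα1β2. Only the treated 48 h library was high, and the ratio to control was 0.984 at 24 h and 2.57 at 48 h (2.43 to 2.72). Its fold over both times was 0.67 (SE 0.17, adjusted p = 0.00421), and without the treated 48 h library it was -0.04. Cox7b (ENSMUSG00000031231.4, chrX:106015700-106022450, plus strand) had 92.7 and 98.9 CPM without LTα1β2 and 101 and 220 CPM with it (fold 0.64, SE 0.17, adjusted p = 0.00652). Ndufa4, first assigned to complex I and now to complex IV (ENSMUSG00000029632.7, chr6:11900292-11907497, minus strand), had 158 and 171 CPM without LTα1β2 and 170 and 378 CPM with it (fold 0.62, adjusted p = 0.00968). In both of these the treated 24 h value lay within the range of the controls or up to 3% above it. Cox7a2, the widely expressed isoform of subunit 7a, went from 63.0 to 140 CPM at 48 h (ratio 2.22, 2.04 to 2.42) and Cox7c from 65.6 to 135 CPM (2.05, 1.89 to 2.23). Both were within 7% of control at 24 h. The catalytic core subunits of complex IV are mitochondrially encoded, and their ratios at 48 h were 1.03 for mt-Co1 (1.02 to 1.04), 1.27 for mt-Co2 (1.115 to 1.452) and 1.82 for mt-Co3 (1.55 to 2.14). Nearly all windows of mt-Co2 and mt-Co3 are shared, so their ratios are uncertain. Of the other nuclear genes, Cox4i1 had 221 and 230 CPM without LTα1β2 and 222 and 341 CPM with it, whereas Cox8a had 195 and 203 CPM without LTα1β2 and 203 and 239 CPM with it. Cox5a, whose mean difference was lowest in the complex, had a ratio of 0.996 at 24 h and 1.12 at 48 h (0.996 to 1.25).

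In complex V the genes of the membrane part and stalk differed more at 48 h than those of the catalytic F1 head, with medians of 0.65 over 11 genes and 0.14 over 5 genes (log2 differences). Their median coding lengths were 408 and 894 bases, and with the trend on median transcript length removed the medians were 0.51 and 0.17. The part of coding length in this contrast was not tested. Atp5j2, subunit f of the membrane part (ENSMUSG00000038690.15, chr5:145183698-145192062, minus strand), was at 180 and 194 CPM without LTα1β2 and 178 and 456 CPM with it. Its ratio was 0.986 at 24 h and 2.35 at 48 h (2.24 to 2.46), its fold over both times 0.60 (SE 0.17, adjusted p = 0.0138), and without the treated 48 h library the fold was -0.07. Atp5mpl, a small protein of the same part (ENSMUSG00000021290.6, chr12:111961375-111966977, minus strand), had 37.8 and 42.0 CPM without LTα1β2 and 40.6 and 97.6 CPM with it (fold 0.65, adjusted p = 0.00607). Both genes were thus high in the treated 48 h library only. The head genes Atp5a1 and Atp5b differed by ratios of 1.06 (1.03 to 1.10) and 1.10 (1.08 to 1.12) at 48 h. Within the head, Atp5e, the small epsilon subunit and named after its values were seen, was the exception with a ratio of 1.84 (1.704 to 1.997).

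In complex I the 29 accessory subunits had a median difference of 0.56 at 48 h and the 7 nuclear core subunits, which hold the flavin and the iron-sulfur clusters, 0.36. Their median coding lengths were 411 and 789 bases, and with the trend on median transcript length removed the medians were 0.45 and 0.25. Ndufc2, an accessory subunit of the membrane arm (ENSMUSG00000030647.8, chr7:97400003-97407802, plus strand), had 42.7 and 43.0 CPM without LTα1β2 and 44.5 and 102 CPM with it (fold 0.64, SE 0.17, adjusted p = 0.00676). Ndufa6 (fold 0.62, adjusted p = 0.0139) had 22.4 and 22.1 CPM without LTα1β2 and 26.6 and 45.4 CPM with it, and Ndufa2 (0.60, adjusted p = 0.0148) 29.8 and 36.3 CPM without LTα1β2 and 34.6 and 73.4 CPM with it. In Ndufa6 both treated libraries lay above both controls, whereas in Ndufa2 the treated 24 h value lay between them. Among the core subunits, named after their values were seen, Ndufs1 and Ndufv1 had ratios of 1.10 (1.00 to 1.22) and 1.07 (0.986 to 1.15) at 48 h and Ndufv2 1.75 (1.63 to 1.87). The assembly factors had a median of 0.27, with Ndufaf1 highest by mean difference at 15.7 and 14.7 CPM without LTα1β2 and 16.8 and 22.4 CPM with it. Ndufaf3 was lowest, at 11.9 and 13.4 CPM without LTα1β2 and 10.3 and 16.5 CPM with it.

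In complexes II and III the gene with the longest coding sequence differed least at 48 h. Sdha, the flavoprotein of complex II, had 162 and 171 CPM without LTα1β2 and 161 and 174 CPM with it, and Sdhd, a membrane anchor, 78.4 and 72.8 CPM without LTα1β2 and 82.2 and 101 CPM with it. In complex III the large core protein gene Uqcrc1 had a ratio of 1.06 at 48 h (0.990 to 1.14) and Cyc1, the gene of cytochrome c1, 1.10 (1.02 to 1.19). The small subunit gene Uqcrb (ENSMUSG00000021520.4, chr13:66900617-66905378, minus strand) had 34.7 and 41.2 CPM without LTα1β2 and 38.0 and 82.0 CPM with it (fold 0.55, SE 0.17, adjusted p = 0.0315). Uqcrh, the hinge protein gene, had 81.0 and 84.2 CPM without LTα1β2 and 78.1 and 176 CPM with it and did not pass (adjusted p = 0.0557). Of mitochondrial genes, mt-Nd3 (chrM:9459-9806, plus strand) passed with a fold of 0.63 (SE 0.21, adjusted p = 0.0468), at the low level and with the shared windows given above.

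With 1 library per group, differences at a single time were counted by size alone, as at least 1.5-fold. At 24 h 0 genes of the chain differed by that much in either direction, beside 1.48% higher and 1.35% lower of all tested genes. At 48 h 36 were higher (33 nuclear and 3 mitochondrial) and 0 lower, beside 7.39% and 6.28% of all tested genes, and 11 were at least 2-fold higher and 0 lower, beside 1.86% and 0.715%. In the same direction at both times were 65 genes higher, beside 28.8% of all tested genes, and 1 lower, mt-Nd6, beside 33.2%. All 87 nuclear genes were higher at 48 h, so their joint count equals that at 24 h, 58, beside 6678 of all 12160 tested genes higher at 24 h. The 24 h ratio of mt-Nd6 was 0.9994 (0.974 to 1.025), with 1 inside the interval. By complex, at least 1.5-fold higher at 48 h were 16 of the 36 nuclear genes of complex I, 0 of the 8 assembly factors, 0 of the 4 genes of complex II, 2 of the 9 of complex III, 7 of the 13 of complex IV and 8 of the 17 of complex V. The medians were 0.44, 0.27, 0.34, 0.51, 0.67 and 0.39. With the trend on median transcript length removed, as described further on, they were 0.42, 0.18, 0.24, 0.31, 0.51 and 0.29. Complex IV stayed highest after the removal, whereas complex III then lay below complex I. Without the removal, complex IV had values from 0.16 for Cox5a to 1.35 for Cox6c, and the ranges of complexes I, III, IV and V overlapped widely. Median coding lengths, in the order of the medians above, were 450, 772.5, 676.5, 333, 258 and 438 bases, shortest in complex IV. No trend on coding length was removed, and its part in the ranking of the complexes was not tested. Whether the folds at the 2 times differ was not tested, since the additive fit leaves no freedom for it.

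**Figure D4:**
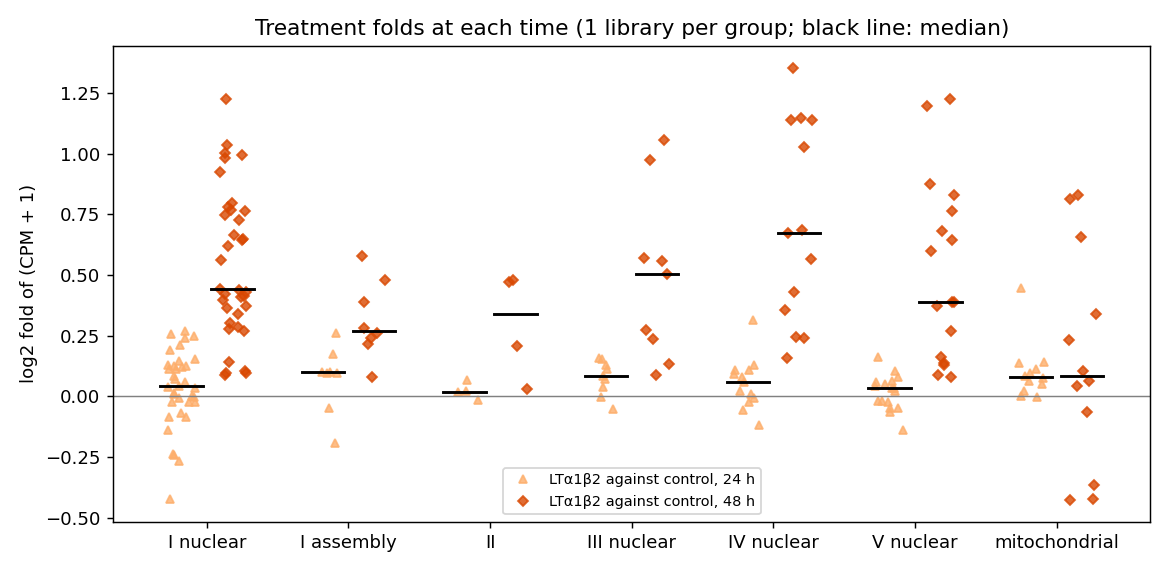
Treatment folds, as differences of log2(CPM + 1), of each gene at 24 h and 48 h by complex, with the median as a black line and 1 library per group. At 24 h the medians lie near 0, and at 48 h every nuclear gene lies above 0 whereas the mitochondrial genes spread from -0.43 to 0.83.

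Time was compared in the same fit, whose treatment and time terms share all 4 libraries. Over both treatments 13 genes of the chain rose from 24 h to 48 h and 0 fell, beside 0.485% higher and 0.493% lower of all tested genes. They were Ndufa2, Ndufb9, Ndufb11, Ndufs4, Uqcrb, Uqcrh, Cox6c, Cox7a2, Cox7b, Ndufa4, Atp5e, Atp5j2 and Atp5mpl, all nuclear. With finite prior degrees of freedom, after rescaling by median-of-ratios size factors and after each removal of a length trend 0 passed. In these fits 26 to 45 genes of the chain were at an unadjusted p under 0.05, beside 1020 to 1585 of all 12160 tested genes. Cox6c differed by 0.04 in control and by 1.42 in treated cells (log2 differences, 48 h against 24 h). In control cells 0 genes differed by at least 1.5-fold between times, beside 0.403% higher and 0.995% lower, and in treated cells 36 were higher and 0 lower, beside 5.58% and 6.95%. The time comparison in treated cells shares the treated 48 h library with the treatment comparison at 48 h, so they are not separate evidence.

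The difference at 48 h went with the length of the coding sequence among the nuclear genes. Over the 45 genes with under 450 coding bases the median log2 difference was 0.65, over the 26 with 450 to under 900 bases 0.42, and over the 16 with 900 bases or more 0.14. All 11 nuclear genes that rose had 174 to 393 coding bases. Across the 87 genes Spearman's rho between coding length and the 48 h difference was -0.61, and at 24 h it was -0.13. The genes share the same libraries and are not independent. Other nuclear coding genes followed the same direction: their median at 48 h was 0.37 under 300 coding bases, 0.34 from 300 to 450, 0.17 from 450 to 600, 0.07 from 600 to 900 and -0.16 from 900 bases on. In the same bins the medians of the respiratory chain were 0.85, 0.42, 0.43, 0.41 and 0.14. The chain genes thus lay above genes of like coding length in each bin, least in the one from 300 to 450 bases, where 19 of 25 exceeded the median of the others. Binned by median transcript length, 84 of the 87 exceeded it.

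**Figure D5:**
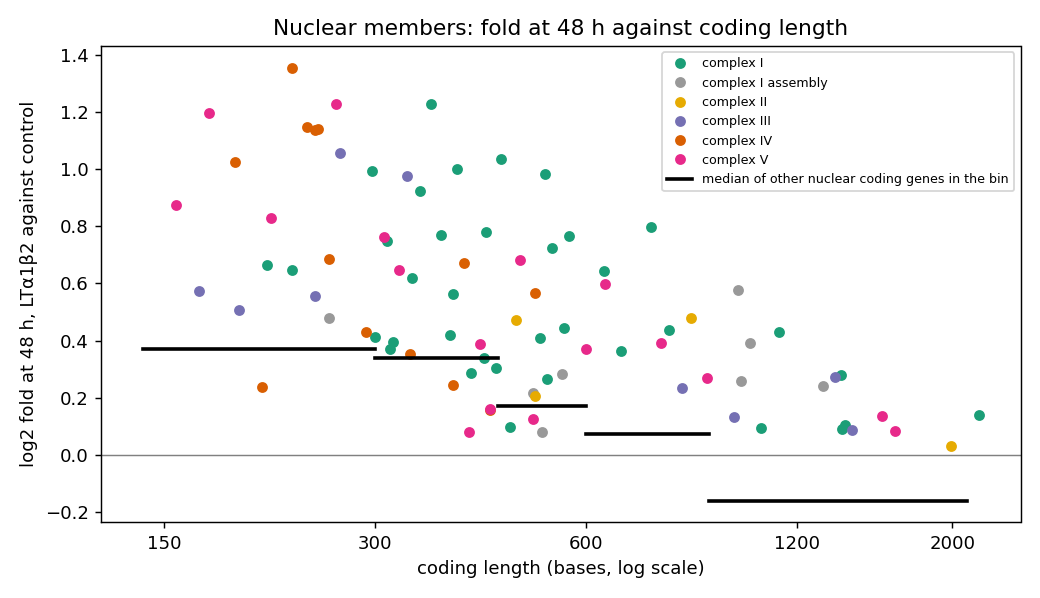
Treatment difference at 48 h, in log2(CPM + 1), of the 87 nuclear genes against coding length (bases, log scale), coloured by complex. Black lines give the median of other nuclear coding genes in each length bin, from 0.37 under 300 bases to -0.16 from 900 bases on; most points lie above the line of their bin.

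When the trend on median transcript length was removed from each library, 24 genes were at least 1.5-fold higher at 48 h and 0 lower, beside 7.06% and 4.21% of all tested genes, and the nuclear median went from 0.44 to 0.33. With the longest transcript of each gene as its length the median over all 99 went from 0.42 to 0.20, and in both cases 0 genes passed the additive test, whose prior degrees of freedom were then finite. When they were set to infinite, as estimated without the removal, 20 passed after removal by median length, beside 7.75% higher of all tested genes. The part of the lower median transcript length of the treated 48 h library in these differences was not tested further.

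Genes around the chain were counted in the same additive fit, in which 2.92% of all tested genes rose, 2.27% fell and 16.3% were at an unadjusted p under 0.05. Of 19 tested assembly factors of complex IV 1 rose, Pet100, at 7.06 and 7.64 CPM without LTα1β2 and 7.07 and 21.8 CPM with it (fold 0.70, adjusted p = 0.0120), and Coa6, the other gene named by the rule, did not pass (adjusted p = 0.210). Of 21 assembly factors of the other complexes none passed, with 4 at an unadjusted p under 0.05, Tmem126b at 0.51 (adjusted p = 0.0615) and Uqcc2 at 0.49 (adjusted p = 0.0627). Of 13 genes of electron carriers and ubiquinone synthesis 1 rose, Cycs, the gene of cytochrome c, at 63.4 and 63.3 CPM without LTα1β2 and 77.8 and 123 CPM with it (fold 0.62, adjusted p = 0.00966). None passed among 22 genes of mitochondrial transcription and RNA, 10 regulators of mitochondrial biogenesis, 16 genes of the TCA cycle and 18 of glycolysis, with 6, 0, 2 and 0 at an unadjusted p under 0.05. Their medians at 48 h were 0.06, -0.06, 0.05 and 0.04. Of 77 mitochondrial ribosomal protein genes 3 rose and 0 fell (median 0.32 at 48 h), among them Mrps18c at 8.25 and 9.24 CPM without LTα1β2 and 10.3 and 23.3 CPM with it. Of 91 cytosolic ribosomal protein genes, which are also short, 28 rose and 1 fell (median 0.80 at 48 h). Their summed CPM was 45720 and 48420 in control, 49610 in treated cells at 24 h and 88120 in treated cells at 48 h, so this group, too, was high in the treated 48 h library. Its part in the result for the respiratory chain was not tested.

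Promoters were read because many nuclear genes of the chain are known to be controlled by NRF1, by ETS family factors such as GABP (NRF2) and by YY1. RefSeq windows (GRCm38.p6, 250 bases before to 50 after the start) were matched for 70 of the 87 nuclear genes. Both strands were searched for GCGCATG (part of the NRF1 palindrome), CCGGAA (ETS core) and AAGATGG (YY1), none of which contains another. NRF1 letters stood in 15 of 70 windows (21.4%), beside 8.44% of the 9238 windows of tested genes. ETS letters stood in 27 (38.6%, beside 33.0%) and YY1 letters in 11 (15.7%, beside 8.70%). Of the 28 windows of genes at least 1.5-fold higher at 48 h, 3 held NRF1 letters, 11 ETS letters and 6 YY1 letters, and of the other 42 windows 12, 16 and 5. A few windows are printed as examples, of a gene with NRF1 and ETS letters, one with YY1 letters and one with none of the 3, with the matches in capitals, 5′ to 3′ on the strand of the gene.
Atp5k: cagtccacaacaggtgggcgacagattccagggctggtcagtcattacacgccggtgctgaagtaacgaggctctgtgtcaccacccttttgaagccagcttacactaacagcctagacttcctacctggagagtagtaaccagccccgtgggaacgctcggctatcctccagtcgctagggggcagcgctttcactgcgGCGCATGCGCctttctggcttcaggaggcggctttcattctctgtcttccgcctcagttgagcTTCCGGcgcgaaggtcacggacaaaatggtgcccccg
Atp5j2: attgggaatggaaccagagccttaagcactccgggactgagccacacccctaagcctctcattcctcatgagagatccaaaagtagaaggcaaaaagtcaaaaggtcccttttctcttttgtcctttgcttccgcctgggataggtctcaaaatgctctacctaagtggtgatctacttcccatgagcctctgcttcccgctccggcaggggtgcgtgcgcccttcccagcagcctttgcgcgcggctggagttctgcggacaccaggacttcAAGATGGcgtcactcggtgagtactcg
Cox7b: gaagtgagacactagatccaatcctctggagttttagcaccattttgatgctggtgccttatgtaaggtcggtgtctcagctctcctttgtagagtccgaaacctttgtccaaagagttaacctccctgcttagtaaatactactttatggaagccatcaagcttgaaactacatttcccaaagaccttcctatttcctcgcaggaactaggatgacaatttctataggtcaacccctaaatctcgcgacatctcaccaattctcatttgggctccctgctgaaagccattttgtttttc
They lie at chr5:108434350-108434649 (minus strand), chr5:145191492-145191791 (minus strand) and chrX:106015450-106015749 (plus strand). Atp5k, the gene of subunit e of complex V, was at 32.1 and 31.3 CPM without LTα1β2 and 31.6 and 56.5 CPM with it and did not pass the test (adjusted p = 0.188), whereas Atp5j2 and Cox7b rose. A match describes the letters in the window and not a bound factor.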

How the data were processed

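RNA was measured in 4 libraries, 1 per group. Per the labels' protocols, libraries were made from 1 µg of total RNA with a directional kit and read as 150 bp pairs. The sources used here do not name the aligner, counter or build, or say if counting used strand. The submitters' processing notes name edgeR 3.30.0. The authors deposited CPM for 12208 genes, each column summing to 1000000. All values were whole multiples (within 0.01 of a read) of 1 step per column, the lowest being 9 to 12 reads. Reads so recovered gave depth and 95% intervals of ratios (conditional binomial, Clopper-Pearson), which cover counting error only.

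Lengths and symbols came from GENCODE M21, where 12205 identifiers matched. Genes averaging at least 1 CPM were fitted on log2(CPM + 1), which understates changes of low genes, with limma 3.58.1 (R 4.3.3): time plus treatment, trended empirical Bayes, two-sided, Benjamini-Hochberg 0.05. The fit has 1 residual degree of freedom, which is the gap between a gene's treatment folds at 24 h and 48 h. Where the prior degrees of freedom were infinite, p-values rest on the size of this gap typical of genes at that level. They do not measure spread between replicates, and the gap may be technical or a real difference between the times. "Rose" and "fell" refer to this fit or a stated variant of it. The planned count fit was not run because the recovered reads did not meet the criterion set for it. Levels per kilobase are CPM divided by the longest transcript's length, rescaled to 1000000 over the table. The rescaling is made within each library, so these levels serve to compare genes and not libraries. Length trends were removed by lowess (span 0.3).

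The genes and lists were chosen with earlier results of these data known. Named genes were the mitochondrial genes, per complex the 2 highest per kilobase and the highest and lowest mean difference, isoform families, genes that passed, and 2 per other list. Others named were chosen after their values were seen. Reads of paralogs, pseudogenes and overlapping genes (mt-Atp8 with mt-Atp6, mt-Nd4l with mt-Nd4, mt-Nd5 with mt-Nd6) may be split.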

Additional observations from a re-analysis of the deposited data

Results flagged for a closer look

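For 8 genes the ratio of treated to control lay on opposite sides of 1 at 24 h and 48 h, with both 95% counting intervals clear of 1. With 1 library per group the difference between the times was not tested. The subunit genes mt-Nd2, mt-Nd4 and mt-Nd5 were higher in treated cells at 24 h (ratios 1.06, 1.037 and 1.054) and lower at 48 h (0.743, 0.7755 and 0.7445). The opposite order was seen for Ndufa11 (0.7385 at 24 h and 1.274 at 48 h), Ndufa8 (0.9058 and 1.334), Ndufb11 (0.8442 and 2.071), Cox6b1 (0.9209 and 1.616) and Atp5e (0.9073 and 1.844). Ndufb1-ps, left out of the comparisons by its name, stood at 48 h at 36.04 CPM without LTα1β2 and 59.88 CPM with it.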

How the results depend on the processing

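The count of 12 genes that rose with treatment became 0 with median-of-ratios rescaling, with each of the 4 removals of a length trend, with no time term and with finite prior degrees of freedom. At an unadjusted p under 0.05 these fits held 3 to 32 genes of the chain, beside 1129 to 2437 of all 12160 tested genes. With infinite prior degrees of freedom it was 33 after median-of-ratios rescaling and 20 after removal of the trend on median length, beside 809 and 943 of all tested genes, both fits chosen after seeing the data. Leaving out 1 library, and with it the time term, gave 0 to 69 that rose and 0 to 3 that fell. The 13 genes that rose with time became 0 with median-of-ratios rescaling, with the 4 length removals and with finite prior degrees of freedom. At an unadjusted p under 0.05 these fits held 26 to 45, beside 1020 to 1585 of all tested genes. In the 2 infinite-prior fits 33 and 28 rose with time, beside 473 and 507 of all tested genes. Pseudocounts, filters and voom left both counts within 1.5 times. All 12 genes had a positive fold in every setting but 1: without the treated 48 h library Cox6c was at -0.043 and Atp5j2 at -0.074 (leaving out 1 library at a time, up to 1.375 and 1.279). Median-of-ratios rescaling moved the median of all genes at 48 h from -0.09 to -0.01, and that of treated cells between times from -0.13 to 0.00. Removing the trend on the longest length moved the median of the 99 genes at 48 h from 0.42 to 0.20, or 0.20 with the trend fitted without them, and the change between times in treated cells from 0.44 to 0.22 and 0.23. Without mt-Atp8, mt-Atp6, mt-Nd4l and mt-Nd4 the mitochondrial share of CPM was 2.75%, 2.97%, 2.92% and 2.95%. By median length, levels per kilobase were 22.7 for complex I assembly factors, 121 for complex II, 204 for complex III, 277 for complex V and 2330 for mitochondrial genes. The cause of these shifts was not tested. No paired analysis was possible because the groups share only replicate number 1. The time term sets each treated library against the control of its own time.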
